A study of Mus musculus with 7 samples.

Results

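Nuclear receptors are transcription factors that bind small lipophilic ligands or, as orphan receptors, act without a settled ligand. A set of 35 mouse nuclear receptor genes was taken by symbol from the 56691 genes of a liver RNA sequencing table, as a list of receptors written by role. All 35 symbols were found, and 29 of them were among the 13683 genes with enough counts to be tested. The liver came from 4 control mice and 3 mice given lipopolysaccharide (LPS), a component of the outer membrane of Gram-negative bacteria that is used to provoke septic liver injury. All mice were male C57BL/6J animals, bought at 8 weeks of age and housed for 2 weeks. Animals given LPS received 10 mg/kg into the peritoneum and were killed after 24 h, and the sources used here do not say clearly whether the control mice were injected. The study kept 6 mice in each group, and the sequenced mice are a part of them. The comparison asks which receptors, and which genes that they are known to regulate, differed in transcript level between the groups.

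In liver, nuclear receptors set the transcription of genes for lipid, bile acid, glucose and drug metabolism. Many of them bind DNA as a pair with a retinoid X receptor (RXR), others as pairs of the same receptor or alone, and a bound ligand exchanges corepressors for coactivators. The amount of a receptor's transcript is therefore only a part of its activity, which also depends on ligand, partners and coregulators.

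Total counts per mouse were between 14991022 and 20500391, and levels are given as CPM, counts scaled to the size of the library. At this depth 3 counts corresponded to between 0.138 and 0.212 CPM. Mitochondrial genes took 23.7%, 14.6%, 7.48% and 8.96% of the counts in control replicates 1 to 4, and 6.45%, 3.83% and 3.94% in LPS replicates 1 to 3. LPS replicates 2 and 3 were unusually alike: the SD of their log2 ratio was 0.190 over 5317 genes with more than 2000 counts in all, against 0.332 to 0.542 in the other pairs within a group. Whether they came from separate animals cannot be told from the counts, and the SD, SE and p-values given here treat them as separate. For this reason the results were also computed with LPS replicates 2 and 3 summed into 1 sample. LPS replicate 1 stood apart in several genes, among them macrophage markers, and fits without it were computed too.

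Of the 29 receptors tested, 2 were higher and 6 were lower after LPS, with an adjusted p-value below 0.05 (edgeR quasi-likelihood test, Benjamini-Hochberg adjustment over all genes tested). These 8 were 27.6% of the receptors tested, beside 26.3% of all tested genes, so the share was near the background and was not particular to the receptors. Hnf4a and Esr1 were the 2 that rose, 6.9% of the receptors against 13.3% of all genes. Nr1i3, Nr3c2, Pparg, Ppard, Nr0b2 and Esrrg were the 6 that fell, 20.7% against 13.0%. Without LPS replicate 2 the counts were 1 higher and 4 lower, and without LPS replicate 3 they were 1 and 3. Both of these fits tested 32 receptors. Over all genes the counts were 1301 higher and 1146 lower of 14130 without LPS replicate 2. They were 1290 and 1159 of 14089 without LPS replicate 3. With a change of more than 2-fold also required, 1 receptor was higher and 3 were lower, where the shares over all genes were 7.81% and 7.31%. Every LPS mouse was above every control mouse for 2 receptors and below for 7, against 18.1% and 17.4% of all genes. The median log2 fold change of the receptors was -0.289, with 9 positive and 20 negative values, and the median over all tested genes was -0.0139. In bulk tissue, fewer cells of a type and less RNA per cell cannot be told apart.

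**Figure D1:**
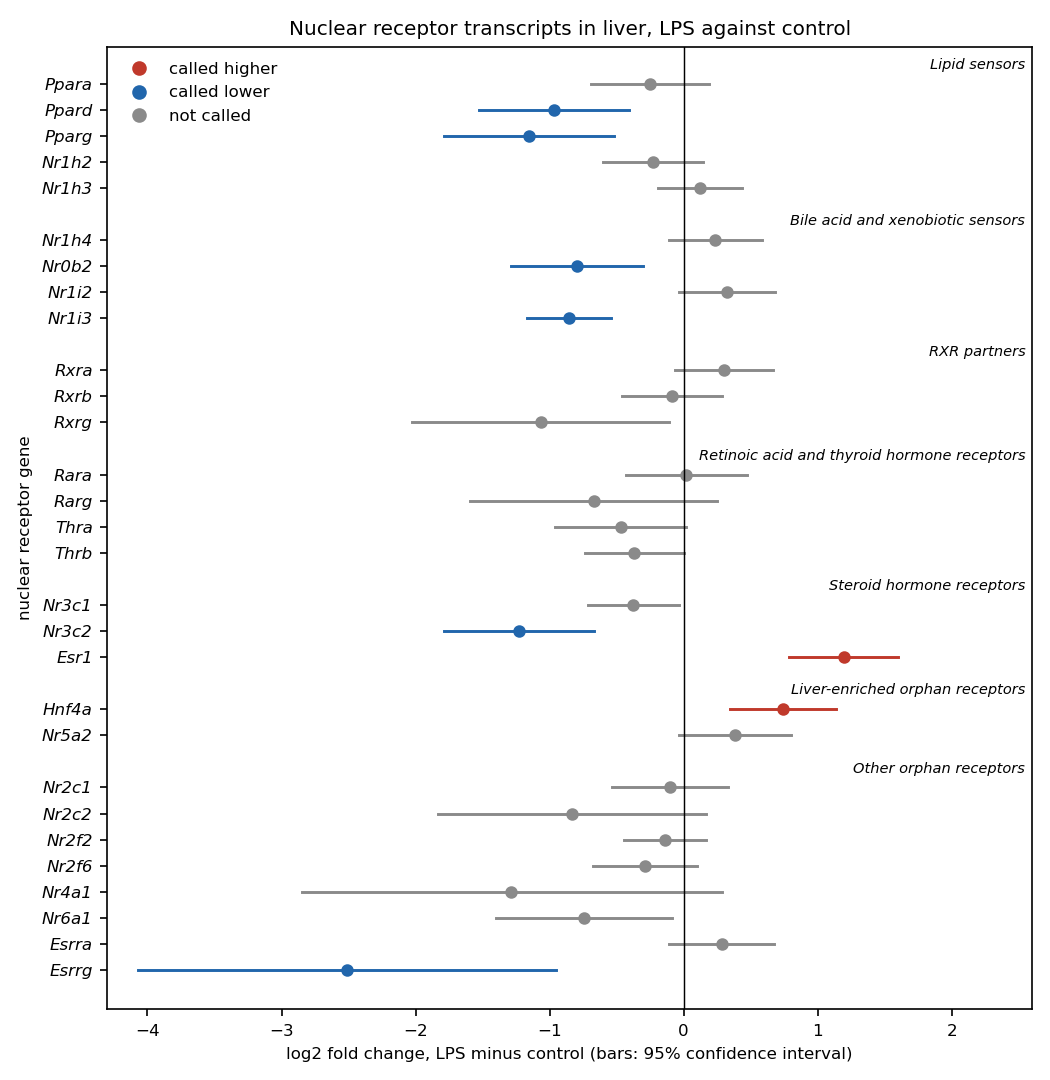
The log2 fold change between LPS-treated and control mice (horizontal axis) is plotted for the 29 tested nuclear receptor genes, grouped by role, with bars for the 95% confidence interval of each gene. Esr1 and Hnf4a lie to the right of 0 among the genes called higher, 6 genes called lower lie to the left, and the intervals of Rxrg, Nr6a1 and Nr3c1 also miss 0 although their adjusted p-values were above 0.05.

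Levels of different receptors were compared per kilobase of merged exons. In control liver Hnf4a had the highest level, 64.1 ± 12.7 CPM per kilobase (SD, n = 4), followed by Nr1h4 at 55.1 ± 10.3 and Rxra at 35.4 ± 6.49. Hnf4a and Nr1h4 did not differ beyond their spread. Next came Nr0b2 at 23.2 ± 6.98, Nr1h3 at 22.7 ± 2.63, Nr1i2 at 17.3 ± 3.62 and Nr1i3 at 16.9 ± 2.12 CPM per kilobase. Nr1h3 was above Nr1i2 in all 4 control mice, and this order of the 4 receptors depends on the length used: with the longest transcript Nr1h3 was at 28.8, Nr1i3 at 24.96, Nr0b2 at 23.2 and Nr1i2 at 17.3. The levels of all 35 receptors summed to 307.1 ± 10.5 CPM per kilobase in control mice and to 347.7 ± 18.6 (SD, n = 3) in LPS-treated mice, with no overlap. Without Hnf4a the sums overlapped, at 234.3 to 249.7 in control mice and 236.8 to 244.8 in LPS-treated mice. Hnf4a made up between 17.5% and 24.9% of this sum in control mice against 26.7% to 32.8% in LPS-treated mice. Its own level per kilobase was 107 ± 17.3 in LPS-treated mice, and Nr1i3 and Nr0b2 were at 9.32 ± 0.432 and 13.4 ± 1.81.

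Hnf4a (ENSMUSG00000017950) encodes the orphan receptor that maintains hepatocyte identity and drives apolipoprotein, clotting factor and urea cycle genes. Its transcript was at 258, 256, 376 and 347 CPM in control replicates 1 to 4 and at 422, 578 and 552 CPM in LPS replicates 1 to 3. Every LPS mouse was above every control mouse, LPS replicate 1 was the lowest of its group, and control replicates 1 and 2 were below the other control mice. These 3 mice had the highest mitochondrial shares of their groups, and every control mouse was above every LPS mouse in that share. The part of the mitochondrial share in the Hnf4a level was not tested. The log2 fold change was 0.74 (SE 0.18, edgeR adjusted p = 0.0096). Over 16 alternative settings the adjusted p-value was between 0.000273 and 0.0581, and it was above 0.05 without LPS replicate 2 (0.0581), without LPS replicate 3 (0.0506) and with both summed (0.0533). Nr5a2, the liver receptor homolog that acts on bile acid genes beside Hnf4a, was at 37.0, 46.7, 56.8 and 61.5 CPM in control mice and at 51.0, 74.0 and 73.2 CPM in LPS-treated mice. The groups overlapped through LPS replicate 1, and the log2 fold change of 0.39 (95% interval -0.033 to 0.805) had an adjusted p of 0.17 from the same test. Nr5a2 was called higher only with replicate number as a block (0.0393), with adjusted p-values from 0.0393 to 0.454 over the alternatives. Hnf4g, the paralog of Hnf4a, had 19, 1, 1 and 7 counts in control mice and 14, 0 and 7 counts in LPS-treated mice, too few to be tested.

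Known targets of HNF4A were listed beside its transcript. For this and each later list, the shares of all tested genes called with edgeR were 13.3% higher and 13.0% lower. Of 18 targets listed and tested, 8 were lower and 0 were higher with edgeR (median log2 fold change -0.464, against -0.0139 over all tested genes). The count of higher targets was 1 with DESeq2, without control replicate 4 and without LPS replicate 1, and 2 with no filter on low counts, with replicate number as a block and without control replicate 3. Apom, an apolipoprotein, was among them with no filter (adjusted p = 0.0189) and with the block (0.00813). At an unadjusted p below 0.05, 2 targets were higher. Cps1, the first enzyme of the urea cycle, had a log2 fold change of 0.62 and an adjusted p of 0.053, which was 0.0295, 0.04 and 0.0395 without control replicate 3, control replicate 4 and LPS replicate 1, and between 0.0112 and 0.176 over the alternatives. F9, clotting factor IX, had an adjusted p of 0.11, which was 0.00849 without control replicate 3 and between 0.00849 and 0.304 over the alternatives. Otc, the urea cycle enzyme ornithine transcarbamylase, was at 713, 542, 729 and 654 CPM in control mice and at 138, 177 and 175 CPM in LPS-treated mice, with a log2 fold change of -2.01 (SE 0.17, edgeR adjusted p = 2.86e-06). Pklr, the liver pyruvate kinase, fell by 2.18 on the log2 scale without overlap. Apoc3, an apolipoprotein of triglyceride-rich particles, was at 822 to 1562 CPM in control mice and 703 to 951 CPM in LPS-treated mice, and its adjusted p was 0.14. It was called lower with no filter (0.0476) and with replicate number as a block (0.0362), with adjusted p-values from 0.0362 to 0.353 over the alternatives.

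Nuclear receptors of the bile acid and xenobiotic group sense bile acids and foreign compounds. Nr1i3 (ENSMUSG00000005677), which encodes the constitutive androstane receptor (CAR), was at 81.2, 83.6, 67.6 and 65.2 CPM in control mice and at 43.0, 41.4 and 39.2 CPM in LPS-treated mice. All LPS mice lay close together and below all control mice. This gave a log2 fold change of -0.85 (SE 0.14, edgeR adjusted p = 0.000807), and the gene was called in all 16 alternative settings. In GENCODE annotation 74.9% of the exonic bases of Nr1i3 are also exonic in Tomm40l on the opposite strand, and the strand setting of the counting is not given in the sources used here, so reads of the pair may not be fully separated. Tomm40l was at 2.41, 2.71, 1.59 and 3.58 CPM in control mice and at 5.21, 4.25 and 2.99 CPM in LPS-treated mice, far below Nr1i3 in each mouse.

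Nr0b2 (ENSMUSG00000037583) encodes the small heterodimer partner (SHP), which lacks a DNA-binding domain and represses bile acid synthesis downstream of the farnesoid X receptor (FXR). It was at 31.1, 34.7, 18.2 and 21.1 CPM in control mice and at 13.7, 17.5 and 14.1 CPM in LPS-treated mice. The control mice fell into a higher pair, replicates 1 and 2, and a lower pair, and the lowest control mouse was only just above the highest LPS mouse. In the test the log2 fold change was -0.80 (SE 0.23, edgeR adjusted p = 0.020). Over the alternatives the adjusted p-value was between 0.00051 and 0.084. The call was lost without control replicate 2 (0.0579), without LPS replicate 1 (0.0708), without LPS replicate 3 (0.084) and with LPS replicates 2 and 3 summed (0.0557).

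Nr1h4, which encodes FXR, was at 158, 114, 104 and 132 CPM in control mice and at 157, 151 and 141 CPM in LPS-treated mice. Control replicate 1 was above every LPS mouse, and the log2 fold change of 0.24 had a 95% interval from -0.112 to 0.584. Nr1i2, which encodes the pregnane X receptor (PXR), was at 33.1, 42.3, 45.5 and 55.5 CPM in control mice and at 55.7, 54.2 and 55.8 CPM in LPS-treated mice. Control replicate 4 reached the level of the LPS mice, and the log2 fold change was 0.32 with a 95% interval from -0.0377 to 0.686. Neither gene passed the test (adjusted p = 0.31 and 0.18, edgeR). Vdr, the vitamin D receptor, had 1, 7, 1 and 0 counts in control mice and 3, 1 and 3 counts in LPS-treated mice, and was not tested.

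Bile acid synthesis and transport are regulated by FXR and SHP. With edgeR, 11 of 15 tested genes of these pathways were lower and 0 were higher (median log2 fold change -0.968), and 8 were lower with LPS replicates 2 and 3 summed. The count of higher genes was also 0 at an unadjusted p below 0.05, with DESeq2 and in the 7 fits with a mouse left out. Cyp7a1, the rate-limiting enzyme of bile acid synthesis, was at 54.0, 55.0, 27.6 and 65.9 CPM in control mice and at 24.9, 5.41 and 4.05 CPM in LPS-treated mice. LPS replicate 1 was close to the lowest control mouse, and the log2 fold change was -2.12 (SE 0.52, edgeR adjusted p = 0.0093) with it and -3.42 (adjusted p = 2.61e-05) without it, with adjusted p-values from 2.01e-26 to 0.0433 over the alternatives. Cyp8b1, which directs synthesis towards cholic acid, was at 196, 234, 143 and 299 CPM in control mice and at 107, 106 and 122 CPM in LPS-treated mice, without overlap.

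Abcb11, the bile salt export pump and a direct FXR target, was at 525, 554, 695 and 582 CPM in control mice and at 144, 162 and 152 CPM in LPS-treated mice. Slc10a1, the transporter that takes up bile acids from blood, was at 356, 423, 456 and 421 CPM in control mice and at 192, 209 and 190 CPM in LPS-treated mice. Both fell without overlap. Abcb11 changed by -1.95 on the log2 scale (SE 0.16, edgeR adjusted p = 1.76e-06) and Slc10a1 by -1.07 (SE 0.14, edgeR adjusted p = 0.000147). The smallest p of the list was that of Slco1a1, an organic anion uptake transporter, which fell by 4.29 on the log2 scale.

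Targets of PXR and CAR moved in both directions. Of 19 tested, 12 were lower and 5 were higher (median log2 fold change -2.04), and with LPS replicates 2 and 3 summed the counts were 12 and 4. Cyp3a11, the main PXR target among the drug-metabolizing oxidases, was at 2988, 3349, 4177 and 3002 CPM in control mice and at 178, 112 and 96.5 CPM in LPS-treated mice, with a log2 fold change of -4.71 (SE 0.27, edgeR adjusted p = 1.10e-07). Cyp2b10, the classical CAR target, went the other way: it was at 2.19, 4.99, 11.6 and 6.05 CPM in control mice and at 64.0, 44.7 and 48.0 CPM in LPS-treated mice. Its log2 fold change was 3.07 (SE 0.37, edgeR adjusted p = 5.73e-05). Ugt1a1, which conjugates bilirubin, was at 32.2 to 167 CPM in control mice and 16.9 to 30.9 CPM in LPS-treated mice, and was called lower.

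Further genes with the smallest p in this list were Cyp3a13, which rose by a log2 fold change of 2.21, and Cyp2c50 and Cyp2c54, which fell by 4.38 and 4.32 on the log2 scale. The Cyp2b, Cyp2c and Cyp3a families hold near-identical genes, and how reads that match several of them were counted is not given, so the split of reads within each family is uncertain. Of the 24 genes written in the list, Cyp2b13, Cyp3a16, Cyp3a41a and Cyp3a44 had 0 counts in every mouse, which allows up to 0.212 CPM in the shallowest library by counting error alone.

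**Figure D2:**
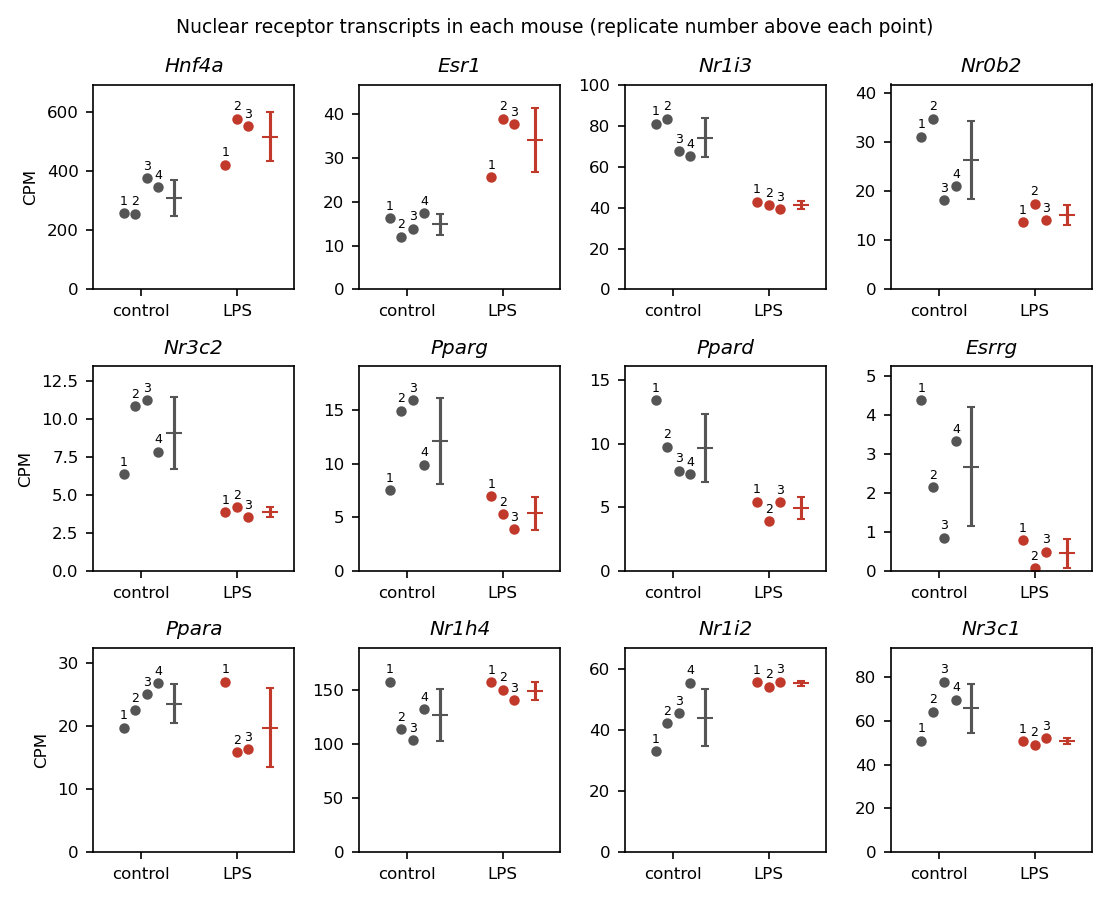
The level in CPM (vertical axis, from 0) is plotted for each of 4 control and 3 LPS-treated mice, numbered by replicate, in the 8 receptors called and in Ppara, Nr1h4, Nr1i2 and Nr3c1, with the mean and SD of each group beside the points. In the upper 8 panels the groups do not overlap, and in the lower 4 panels they do.

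Lipid-sensing receptors include the peroxisome proliferator-activated receptors (PPARs), which bind fatty acids, and the liver X receptors (LXRs), which bind oxysterols. Pparg (ENSMUSG00000000440), which favours lipid storage, was at 7.57, 14.96, 16.0 and 9.92 CPM in control mice and at 7.01, 5.28 and 3.92 CPM in LPS-treated mice. Control replicate 1 nearly met LPS replicate 1. Its log2 fold change was -1.16 (SE 0.29, edgeR adjusted p = 0.012). The adjusted p-value ranged from 5.68e-05 to 0.0627 over the alternatives and was above 0.05 only without LPS replicate 3 (0.0627).

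Ppard (ENSMUSG00000002250), which is expressed in many tissues and drives fatty acid use, was at 13.4, 9.78, 7.88 and 7.60 CPM in control mice and at 5.44, 3.93 and 5.42 CPM in LPS-treated mice. Control replicate 1 stood above the other mice, and the groups did not overlap. The log2 fold change was -0.97 (SE 0.26, edgeR adjusted p = 0.015), with adjusted p-values from 0.00316 to 0.0752 over the alternatives, of which the fit without LPS replicate 2 (0.0752) lost the call. Ppara, the main PPAR of hepatocytes and the driver of fatty acid oxidation in fasting, was at 19.8, 22.6, 25.1 and 26.9 CPM in control mice and at 27.1, 15.9 and 16.4 CPM in LPS-treated mice. LPS replicate 1 was the highest of all 7 mice and LPS replicates 2 and 3 were the lowest, and the log2 fold change of -0.25 (95% interval -0.69 to 0.192, adjusted p = 0.41, edgeR) was not called. Without LPS replicate 1 it was -0.54 (adjusted p = 0.0555) and without LPS replicates 2 or 3 it was -0.11 or -0.13, and the adjusted p-value was between 0.0555 and 0.797 over the alternatives. Per kilobase, Ppara made up between 48.1% and 61.6% of the PPAR transcripts in control mice against 64.2% to 69.5% in LPS-treated mice.

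PPARA targets were divided. Of 38 tested, 10 were higher and 9 were lower (median log2 fold change 0.0576), and with LPS replicates 2 and 3 summed the counts were 6 and 8. Over all tested genes 13.3% were higher and 13.0% were lower. Without LPS replicate 3 the count of higher targets was also 6. Cd36, a fatty acid uptake receptor, was at 22.4, 27.8, 21.3 and 23.4 CPM in control mice and at 123, 153 and 153 CPM in LPS-treated mice, with a log2 fold change of 2.59 (SE 0.15, edgeR adjusted p = 1.12e-07). Cyp4a14, a fatty acid hydroxylase, and Plin5, a lipid droplet protein, rose by log2 fold changes of 2.70 and 1.63. Fabp1, the fatty acid binding protein of hepatocytes, was at 6416, 6312, 4469 and 4678 CPM in control mice and at 755, 829 and 804 CPM in LPS-treated mice, and fell by 2.78 on the log2 scale. Acaa1b, a peroxisomal thiolase, fell by 3.69.

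Cpt1a, the gatekeeper of mitochondrial oxidation, was not called. It had a log2 fold change of 0.51 and an adjusted p of 0.059, which was below 0.05 without LPS replicate 1 (0.0321), without control replicate 3 (0.0498) and without control replicate 4 (0.036), 0.0387 with DESeq2, and between 0.0155 and 0.221 over the alternatives. Pdk4, which restrains pyruvate oxidation, was at 21.6, 24.3, 6.36 and 21.3 CPM in control mice and at 8.16, 6.19 and 8.72 CPM in LPS-treated mice. Its log2 fold change was -1.26 (adjusted p = 0.022, edgeR), control replicate 3 lay among the LPS mice, and the call was lost in 5 of the 7 fits that left out a mouse, held only without control replicate 1 or 3, and had an adjusted p of 0.0684 with LPS replicates 2 and 3 summed. The fits that lost it were those without control replicate 2 (0.0697), control replicate 4 (0.0512), LPS replicate 1 (0.0504), LPS replicate 2 (0.092) and LPS replicate 3 (0.0546), and over the alternatives the adjusted p-value was between 2.34e-07 and 0.0938.

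Nr1h3 encodes the LXR that dominates in liver and Nr1h2 its widely expressed relative. Nr1h3 was at 48.3 to 62.4 CPM in control mice and 55.9 to 69.4 CPM in LPS-treated mice, and its log2 fold change of 0.12 had a 95% interval from -0.191 to 0.439. Nr1h2 was at 13.1 to 15.1 and 11.0 to 14.8 CPM, with a log2 fold change of -0.23 and an interval from -0.599 to 0.148. Per kilobase, Nr1h3 made up between 81.3% and 86.4% of the LXR transcripts in control mice against 86.2% to 87.9% in LPS-treated mice.

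Neither LXR transcript was called, while 10 of 17 tested LXR targets were lower and 1 was higher (median log2 fold change -0.898), with the same counts when LPS replicates 2 and 3 were summed. Srebf1, the transcription factor of fatty acid synthesis, was at 69.8, 85.01, 74.4 and 61.4 CPM in control mice and at 11.4, 13.3 and 15.5 CPM in LPS-treated mice, with a log2 fold change of -2.44 (SE 0.17, edgeR adjusted p = 6.04e-07). Mlxipl, which encodes the carbohydrate response factor ChREBP, fell by 2.72 on the log2 scale, and Abcg5, a sterol exporter into bile, by 1.32. Abca1, which loads cholesterol onto nascent high-density lipoprotein, was the 1 gene that rose: it was at 157, 145, 201 and 184 CPM in control mice and at 242, 308 and 281 CPM in LPS-treated mice, with a log2 fold change of 0.69 (SE 0.16, edgeR adjusted p = 0.0060).

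The retinoid X receptors are the common partners of the lipid, bile acid and xenobiotic sensors. Rxra was at 150, 187, 236 and 200 CPM in control mice and at 209, 242 and 265 CPM in LPS-treated mice, with overlap. Per kilobase it made up between 83.0% and 89.7% of RXR transcripts in control mice against 89.9% to 92.1% in LPS-treated mice. Its log2 fold change was 0.30, with a 95% interval from -0.0611 to 0.668. Rxrb was at 13.2 to 16.5 and 11.6 to 15.5 CPM, and its log2 fold change of -0.08 became 0.045 without LPS replicate 1. Rxrg, the least abundant, was at 5.31, 3.22, 2.26 and 4.36 CPM in control mice and at 2.07, 2.51 and 0.809 CPM in LPS-treated mice. It had a log2 fold change of -1.07 and an adjusted p of 0.096, which was 0.0488 without control replicate 3 and between 0.0488 and 0.293 over the alternatives.

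Retinoic acid and thyroid hormone receptors pair with RXR and bind their hormones in the nucleus. None of the 4 tested was called by edgeR, at an unadjusted p below 0.05, or by DESeq2. Rara was at 7.98 to 12.2 CPM in control mice and 8.34 to 10.6 CPM in LPS-treated mice, with a log2 fold change of 0.02 whose sign changed in 9 of 16 alternatives. Rarg was at 1.59 to 3.79 and 1.18 to 2.58 CPM, and Rarb, which shares 34.1% of its exonic bases with Top2b on the opposite strand, had 8, 5, 2 and 5 counts in control mice and 1, 0 and 6 counts in LPS-treated mice. Thra was at 6.60 to 10.2 CPM in control mice and 5.25 to 6.85 CPM in LPS-treated mice, with a log2 fold change of -0.47 (95% interval -0.958 to 0.0206). Thrb, the main thyroid hormone receptor of hepatocytes, was at 25.2 to 35.9 and 19.4 to 27.4 CPM, with a log2 fold change of -0.37 (95% interval -0.737 to 0.00217). Thra shares 263 exonic bases with Nr1d1 on the opposite strand.

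Targets of the thyroid hormone receptor were lower in 4 of 5 tested genes with edgeR. No target was higher, at an unadjusted p below 0.05 or with DESeq2 either, although Hr passed without control replicate 1 (adjusted p = 0.0214, log2 fold change 1.75 in place of 1.14; 0.0214 to 0.388 over the alternatives). Thrsp, a lipogenic nuclear protein, was at 182, 200, 80.8 and 126 CPM in control mice and at 9.40, 13.0 and 11.0 CPM in LPS-treated mice, with a log2 fold change of -3.73 (SE 0.30, edgeR adjusted p = 1.83e-06). Dio1, the deiodinase that activates thyroid hormone, was at 176, 190, 179 and 149 CPM in control mice and at 38.9, 81.2 and 91.3 CPM in LPS-treated mice. Dio1 and Me1, the malic enzyme, fell by 1.30 and 1.37 on the log2 scale. Of 6 tested retinoic acid targets, 2 were lower and 1 was higher. Cyp26a1, which breaks down retinoic acid, was at 45.9, 11.2, 13.0 and 11.9 CPM in control mice and at 3.83, 3.87 and 3.92 CPM in LPS-treated mice. Control replicate 1 was far above the others, and the log2 fold change of -2.40 was -1.64 without it. Dhrs3, a retinaldehyde reductase, fell by 0.93 and Tgm2, a transglutaminase, rose by 1.14 on the log2 scale.

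Steroid hormone receptors moved in different directions. Esr1 (ENSMUSG00000019768), which encodes oestrogen receptor alpha, was at 16.3, 12.1, 13.8 and 17.3 CPM in control mice and at 25.6, 38.9 and 37.7 CPM in LPS-treated mice. Every LPS mouse was above every control mouse, with LPS replicate 1 the lowest of its group. This gave a log2 fold change of 1.19 (SE 0.19, edgeR adjusted p = 0.000457), and the gene was called in all 16 alternatives, with LPS replicates 2 and 3 summed included. Nr3c2 (ENSMUSG00000031618), the mineralocorticoid receptor, was at 6.37, 10.9, 11.2 and 7.84 CPM in control mice and at 3.87, 4.19 and 3.55 CPM in LPS-treated mice. The LPS mice lay within a narrow range below all control mice. In the test the log2 fold change was -1.23 (SE 0.26, edgeR adjusted p = 0.0038), and this gene too was called in all 16 alternatives.

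Nr3c1 encodes the glucocorticoid receptor, which is held in the cytosol until it binds corticosterone. It was at 50.8, 64.1, 77.7 and 69.5 CPM in control mice and at 50.7, 49.1 and 51.9 CPM in LPS-treated mice. Control replicate 1 was among the LPS mice and the other control mice were above them. Its log2 fold change was -0.37 (95% interval -0.714 to -0.0346) with an adjusted p of 0.0995 from edgeR's test, which was 0.0206 without control replicate 1 and between 0.0206 and 0.267 over the alternatives.

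Targets of the glucocorticoid receptor were mostly higher. Of 19 tested, 12 were higher and 2 were lower (median log2 fold change 1.30), and with LPS replicates 2 and 3 summed the counts were 11 and 2. Fkbp5, a chaperone that is induced by glucocorticoids in many cell types, was at 9.20, 6.50, 20.2 and 12.5 CPM in control mice and at 178, 181 and 183 CPM in LPS-treated mice, with a log2 fold change of 3.90 (SE 0.30, edgeR adjusted p = 1.07e-06). Per1, a clock gene with glucocorticoid response elements, and Tat, the tyrosine aminotransferase, rose by log2 fold changes of 2.13 and 1.403. Mt2 and Mt1, metallothioneins that respond to metals and cytokines as well, had the smallest p and rose by 8.995 and 7.47 on the log2 scale.

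Tsc22d3, another glucocorticoid-induced gene, was at 124, 182, 62.5 and 143 CPM in control mice and at 122, 118 and 112 CPM in LPS-treated mice, and was not called (log2 fold change -0.12, adjusted p = 0.78, edgeR). G6pc, the last enzyme of glucose release, was at 316, 728, 635 and 945 CPM in control mice and at 96.3, 137 and 129 CPM in LPS-treated mice, a log2 fold change of -2.44. Dusp1, a phosphatase that limits kinase signalling, fell by 1.598. Several genes of this list are also induced by inflammatory signals, and the share of the receptor in their change was not tested.

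The remaining orphan receptors were mostly expressed at low levels. Esrrg (ENSMUSG00000026610), an oestrogen-related receptor that drives oxidative metabolism, was at 4.39, 2.15, 0.856 and 3.34 CPM in control mice and at 0.784, 0.0644 and 0.498 CPM in LPS-treated mice. These levels rested on 62, 34, 14 and 69 counts and on 17, 1 and 8 counts, and control replicate 3 was close to LPS replicate 1. The log2 fold change was -2.51 (SE 0.72, edgeR adjusted p = 0.021). It was not called without LPS replicate 2 (0.0645) or LPS replicate 3 (0.0654), and its log2 fold change was -3.20 without LPS replicate 1. With at least 10 counts in every sample Esrrg was not tested, and 5 receptors were lower. Over the other alternatives its adjusted p-values were between 0.000242 and 0.0654. Esrra, its more abundant relative, was at 9.58 to 13.6 CPM in control mice and 13.1 to 16.2 CPM in LPS-treated mice, with a log2 fold change of 0.28 (95% interval -0.105 to 0.674).

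Nr4a1, an immediate early gene, was at 0.708, 11.5, 1.47 and 7.55 CPM in control mice and at 2.95, 1.93 and 1.62 CPM in LPS-treated mice. The control mice differed among themselves more than the groups did, and the log2 fold change of -1.28 (SE 0.72) had an adjusted p of 0.22, or 0.00393 when no filter on low counts was used and between 0.00393 and 0.852 over the alternatives. Without control replicate 2, the highest mouse, the log2 fold change was -0.61. Its relatives were below the filter: Nr4a2 had 0, 11, 5 and 14 counts in control mice and 1, 1 and 0 in LPS-treated mice, and Nr4a3 had 0, 0, 1 and 2 counts and 0, 2 and 0 counts. Nr6a1, known from germ cells and early embryos, was at 7.50, 5.81, 9.04 and 6.63 CPM in control mice and at 5.25, 5.28 and 2.43 CPM in LPS-treated mice. Its groups did not overlap, but the adjusted p was 0.092.

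Nr2f2, a vascular and mesenchymal orphan receptor, was at 29.5 to 37.3 CPM in control mice and 28.7 to 33.6 CPM in LPS-treated mice, with a log2 fold change of -0.14 (95% interval -0.444 to 0.169). Its relative Nr2f6 was at 24.7 to 36.5 and 20.97 to 28.2 CPM, and Nr2f1 had 13, 10, 1 and 6 counts in control mice and 11, 6 and 7 counts in LPS-treated mice. The testicular receptors Nr2c1 and Nr2c2 were at 10.5 to 15.3 and 1.64 to 4.60 CPM in control mice and at 9.41 to 13.7 and 1.24 to 2.13 CPM in LPS-treated mice. Of these genes, the 4 that were tested were not called, and the sign of Nr2c1 changed in 3 of 16 alternatives. Nr2f6 shares 54.4% of its exonic bases with Ocel1 and Nr2c2 shares 30.7% with Mrps25, both on the opposite strand.

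The 14 other nuclear receptors of the mouse listed beside these had 6 tested genes, of which 4 were lower and 0 were higher (median log2 fold change -1.35), and the 4 were also lower with LPS replicates 2 and 3 summed. Nr1d1 and Nr1d2, the clock repressors REV-ERB alpha and beta, were lower without overlap. Nr1d1 was at 18.3, 12.3, 12.3 and 15.8 CPM in control mice and at 4.24, 7.28 and 1.99 CPM in LPS-treated mice, with a log2 fold change of -1.71 (SE 0.34, edgeR adjusted p = 0.0029). Nr1d2 fell by 0.99. Nr1h5, which encodes FXR beta, had 65, 110, 75 and 90 counts in control mice and 18, 4 and 3 counts in LPS-treated mice. With at least 10 counts in every sample Nr1h5 was not tested, and 2 genes of this list were lower. Rora, the activator opposed to REV-ERB, was at 43.2 to 80.2 CPM in control mice and 49.8 to 71.3 CPM in LPS-treated mice. At an unadjusted p below 0.05 no gene of these was higher, and DESeq2 also called 0 higher.

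**Figure D3:**
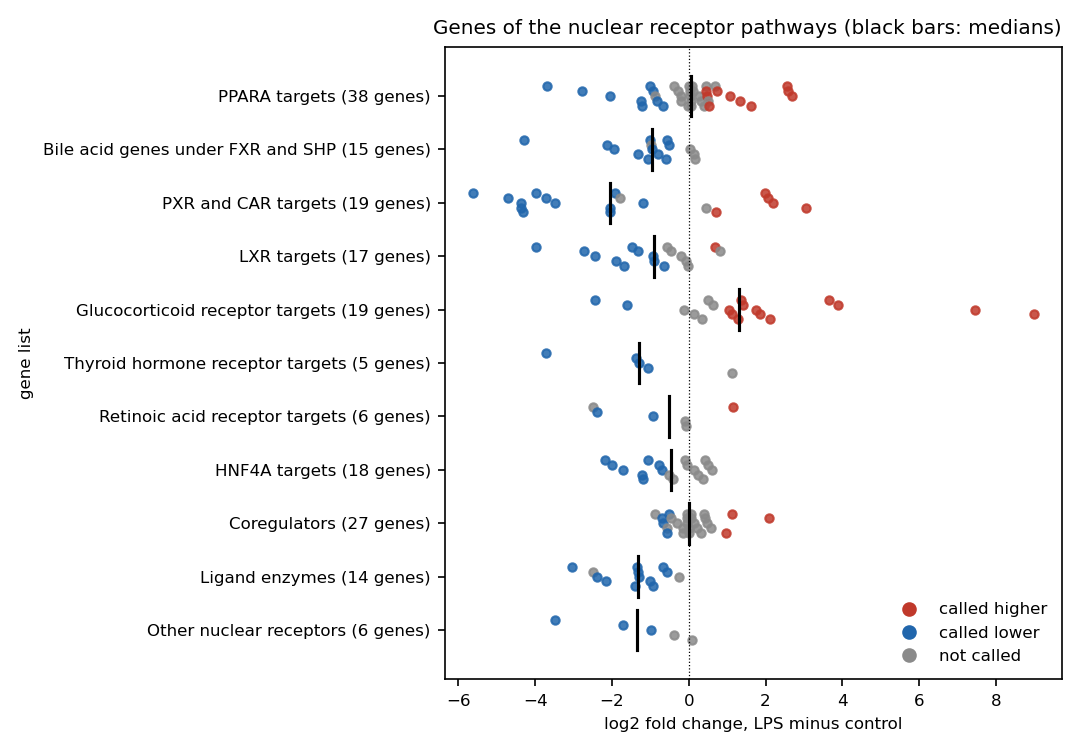
The log2 fold change between LPS-treated and control mice (horizontal axis) is plotted for each tested gene of 11 lists around the nuclear receptors, 1 row per list, with a black bar at the median of the list; genes with at most 3 counts in every mouse of a group, Ch25h among them, count towards the medians but are not drawn. The medians run from -2.04 for PXR and CAR targets to 1.30 for glucocorticoid receptor targets.

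Coregulators are recruited by receptors to act on chromatin. Of 27 tested, 3 were higher and 4 were lower (median log2 fold change -0.00519), near the 13.3% and 13.0% of all tested genes. With LPS replicates 2 and 3 summed, 3 were higher and 1 was lower. The count of lower coregulators was 0 without LPS replicate 2, 1 without LPS replicate 3, and 2 without LPS replicate 1, control replicate 3 or control replicate 4. Ppargc1a, the coactivator PGC-1 alpha of gluconeogenesis and oxidation, was at 3.82, 2.71, 5.01 and 3.58 CPM in control mice and at 9.49, 19.8 and 18.9 CPM in LPS-treated mice, with a log2 fold change of 2.08 (SE 0.29, edgeR adjusted p = 0.000168). Tbl1xr1, a part of the corepressor complex, rose by 0.97 on the log2 scale.

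Ncor1, which encodes a corepressor, was at 52.7 to 79.4 CPM in control mice and 54.9 to 59.0 CPM in LPS-treated mice, with an adjusted p of 0.53. Crebbp, a histone acetyltransferase, had a log2 fold change of -0.51 (adjusted p = 0.020, edgeR), and its adjusted p was 0.0646, 0.0957 and 0.0543 without LPS replicates 1, 2 and 3 and 0.0699 with replicates 2 and 3 summed, within 0.013 to 0.0957 over the alternatives.

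Enzymes that make or remove receptor ligands were mostly lower. Of 14 tested, 11 were lower and 1 was higher (median log2 fold change -1.31), and 9 and 1 with LPS replicates 2 and 3 summed. Among the lower ones, Cyp27a1 and Cyp7b1 were already counted in the bile acid list. Dio1 was already counted among the thyroid hormone receptor targets, and Cyp26a1 and Dhrs3 among the retinoic acid targets. Hsd11b1, which regenerates corticosterone from its inactive form, was at 607, 545, 669 and 541 CPM in control mice and at 120, 139 and 142 CPM in LPS-treated mice, with a log2 fold change of -2.15 (SE 0.16, edgeR adjusted p = 7.76e-07). Srd5a1, a steroid reductase, was at 77.7, 67.3, 104 and 87.1 CPM in control mice and at 8.85, 10.2 and 11.5 CPM in LPS-treated mice, and fell by 3.04. The gene called higher was Ch25h, which makes an oxysterol: it had 0, 0, 2 and 2 counts in control mice and 78, 44 and 19 counts in LPS-treated mice. It passed the filter on low counts through the LPS-treated mice. With at least 10 counts in every sample Ch25h was not tested, and the count of higher enzymes was 0.

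Markers of cell types were summed per mouse. Hepatocyte markers summed to 51790, 52330, 77690 and 65530 CPM in control mice and to 35680, 37290 and 37280 CPM in LPS-treated mice. Alb was the most abundant, and 3 of 8 were lower, with Alb and Ttr among them. The other 5 were not called, 3 of the 8 had positive log2 fold changes, and the median of the list was -0.144. Alb was not called without LPS replicate 2 (0.0618), without LPS replicate 3 (0.0641) or with both summed (0.0654), within 1.02e-05 to 0.0654 over the alternatives. Neutrophil markers summed to 5.17, 4.04, 1.65 and 2.86 CPM in control mice and to 206, 149 and 150 CPM in LPS-treated mice. All 6 tested of 8 were higher, S100a9 was the most abundant, and Ngp and Ly6g had 0 counts in all control mice. With at least 10 counts in every sample, S100a8, Cxcr2, Retnlg and Ngp were not tested. S100a9 and Csf3r were called higher in all 16 alternatives.

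Macrophage and Kupffer cell markers summed to 147, 206, 189 and 127 CPM in control mice and to 718, 151 and 159 CPM in LPS-treated mice, so only LPS replicate 1 stood above the control mice. Of 10 markers, 4 were higher and 1, the Kupffer cell lectin Clec4f, was lower. Adgre1, which encodes the macrophage surface protein F4/80, was higher in all 16 alternatives, with log2 fold changes from 1.204 to 1.826 when a mouse was left out. Without LPS replicate 1 the count of lower markers was 4, with Vsig4 (log2 fold change -1.92, adjusted p = 0.00107), Timd4 (-3.52, adjusted p = 0.0042) and Cd5l (-3.04, adjusted p = 3.68e-05) called beside Clec4f. The most abundant was Marco, at 410 CPM in LPS replicate 1 and at 66.5 and 65.6 CPM in the other LPS mice, against at most 5.55 CPM in control mice. Without LPS replicate 1, C1qa (0.26) and C1qb (0.0581) were not called, and C1qa was also not called without control replicate 1 (0.067), control replicate 4 (0.0997) or LPS replicate 3 (0.0538). Over the alternatives the adjusted p-value was between 3.05e-05 and 0.26 for C1qa and between 1.86e-09 and 0.0581 for C1qb. LPS replicate 1 also had the highest Ppara level and, of its group, the lowest Hnf4a, Esr1 and Nr5a2 levels.

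Monocyte markers, led by Lyz2, summed to 22.4 to 41.9 CPM in control mice and 106 to 114 CPM in LPS-treated mice, with 3 of 4 higher. Of these, Ly6c2 and Chil3 were not tested with at least 10 counts in every sample. Endothelial markers, led by Fcgr2b, were at 111 to 181 and 102 to 187 CPM, with 2 higher and 2 lower of 8. Kdr, among the lower, was not called without control replicate 2 (0.0693), control replicate 4 (0.0542), LPS replicate 2 (0.0752) or LPS replicate 3 (0.103). Its call was also lost with LPS replicates 2 and 3 summed (0.0826), within 1.88e-05 to 0.103 over the alternatives. Stellate cell markers, led by Dcn, summed to 226 to 505 CPM in control mice and 256 to 310 CPM in LPS-treated mice, with 3 of 10 lower. Cholangiocyte markers, led by Sox9, were at 7.94 to 29.9 and 20.9 to 30.7 CPM, with 1 higher of 5 tested. The higher marker was Sox9, the other 4 had negative log2 fold changes, and the median of the list was -0.643. Markers of T and NK cells, led by Gzma, were at 0.774 to 2.97 and 6.64 to 8.22 CPM. Only Gzma had enough counts to be tested, and it was higher. With at least 10 counts in every sample Gzma was not tested either. B cell markers were at 2.86 to 5.11 and 0 to 1.06 CPM, with 2 of 4 lower, and 1 to 2 in the fits with a mouse left out. The part of these cell types, of the mitochondrial share and of LPS replicate 1 in the receptor results was not tested.

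Short stretches of promoter sequence are shown to place receptor motifs near the start of genes named above. The sequences are from RefSeq on GRCm38.p6, in windows from 250 bases before to 50 bases after each start, and 32 of the 35 receptors matched a window. The core motif bound by many nuclear receptors, AGGTCA, was searched on both strands and is found in 16.3% of all 32851 windows and in 13.3% of the windows of tested genes. It is present in 10 of 51 receptor windows, in 7 of 13 windows of bile acid genes, in 9 of 25 of PXR and CAR targets, in 12 of 35 of PPARA targets, in 5 of 12 of HNF4A targets and in 6 of 27 of glucocorticoid receptor targets. For coregulators the count is 4 of 25, for other nuclear receptors 2 of 13, for ligand enzymes 1 of 18, and for targets of LXR, the thyroid hormone receptor and the retinoic acid receptors 0 of 21, 0 of 6 and 0 of 7. The longer HNF4 motif CAAAGTCCA, which does not contain the core motif, is found in 0.475% of all windows. It is present in 1 of 13 windows of bile acid genes (Cyp8b1), in 3 of 25 of PXR and CAR targets (Cyp3a11 and, with 0 counts in every mouse, Cyp3a16 and Cyp3a41a), and in 0 windows of the receptors and of the 9 other lists, among them 0 of 12 of HNF4A targets. Genes were chosen for print among the index genes of the lists and the called receptors, after their values were seen. Capitals mark the motif on either strand, with 20 bases on each side, 5′ to 3′ along the gene.
Abcb11, chr2:69342647-69342692, minus strand: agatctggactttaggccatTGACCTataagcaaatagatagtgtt
Slc10a1, chr12:80968141-80968186, minus strand: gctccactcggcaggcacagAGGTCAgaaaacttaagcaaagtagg
Cyp3a11, core motif, chr5:145879991-145880036, minus strand: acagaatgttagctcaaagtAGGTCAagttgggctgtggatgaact
Cyp3a11, HNF4 motif, chr5:145879935-145879983, minus strand: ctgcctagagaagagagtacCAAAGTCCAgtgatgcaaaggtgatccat
Cyp8b1, HNF4 motif, chr9:121916344-121916392, minus strand: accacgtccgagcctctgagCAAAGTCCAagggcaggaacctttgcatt
Cpt1a, chr19:3323187-3323232, plus strand: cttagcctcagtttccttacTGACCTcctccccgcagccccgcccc
Per1, chr11:69098792-69098837, plus strand: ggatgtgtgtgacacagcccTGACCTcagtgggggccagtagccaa
Pparg, chr6:115361096-115361141, plus strand: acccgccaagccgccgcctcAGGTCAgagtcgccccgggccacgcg
The motifs lie upstream of the start, 56 bases before it in Abcb11, 87 in Slc10a1, 162 and 109 in Cyp3a11, 67 in Cyp8b1, 94 in Cpt1a, 137 in Per1 and 28 in Pparg, where another start has a match 9 bases before it that is not printed, each counted from the first base of the motif. The printed genes were chosen, so their directions of change say nothing about the motif. A match describes the letters of the window and is not a shown binding site.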

How the data were processed

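Liver polyadenylated RNA was sequenced from strand-specific libraries. For 7 mice, integer counts per gene as deposited by the authors were used. The study names Cutadapt 1.9.1 and HISAT2 2.2.1; the submitters' notes also name HTSeq 0.6.1, DESeq2 1.34.0 and the build GRCm39, and the study names a different DESeq2 version. The annotation, strand setting and treatment of multiply matching reads are not given in the sources used here. Here, filterByExpr, TMM scaling and the quasi-likelihood test of edgeR 4.0.16 (R 4.3.3, condition as the only term) were applied, with Benjamini-Hochberg adjustment over all genes tested; standard errors and 95% intervals came from the F statistic. Lengths and exon overlaps were taken from GENCODE M21, on another build, so no coordinates were read from it. Libraries of a group were treated as separate animals, which the counts cannot show for LPS replicates 2 and 3. Floors and counts cover counting error only. Alternatives included DESeq2 1.42.0, other scaling and filters, each mouse left out, and LPS replicates 2 and 3 summed. Methods were tested on simulated counts. The members and lists were chosen with earlier results of these data known. Named were every receptor, each list's index genes and, per direction, its 2 called genes of lowest p, and per marker list the most abundant gene and markers at 0. Some genes that this rule names are not reported here. Pathway lists hold 201 genes, 6 of them in more than 1 list.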

Additional observations from a re-analysis of the deposited data

Results flagged for a closer look

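Control groups of the 29 tested receptors were searched for a mouse far from the other 3. One value was picked out: Nr1h2 in control replicate 2, at 13.13 CPM, below the next value of 14.79 CPM by a gap of 0.865 of the range of the 4 mice. Chance alone picks out about 1 in 20 such groups, so 1 among 29 is no more than chance gives.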

How the results depend on the processing

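The same 8 receptors were called with DESeq2, with RLE factors, with total counts, and with genes over 1% of the counts or mitochondrial genes left out of the scaling. Esr1, Nr1i3 and Nr3c2 were called in all 16 alternatives. Total counts shifted the median of all genes by -0.115 and gave 1350 higher and 2057 lower genes in place of 1825 and 1773; the cause was not tested. A 2-fold threshold left 1 higher and 3 lower receptors (1068 and 1000 of all genes), and an adjusted p below 0.01 left 2 higher and 2 lower receptors (1091 and 993 of all genes). With LPS replicates 2 and 3 summed, 1 receptor was higher and 5 were lower (1348 and 1195 of 14228 genes). With a mouse left out, 1 to 2 receptors were higher and 3 to 7 lower, and 1290 to 1906 of all genes were higher and 1146 to 1868 lower, with fewer samples.

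Signs changed only in 3 receptors that were never called. Rara was -0.093 with total counts, -0.0012 with at least 10 counts in every sample, -0.017 with LPS replicates 2 and 3 summed and between -0.066 and 0.153 with a mouse left out. Rxrb was between -0.153 and 0.045, and Nr2c1 between -0.242 and 0.031, with a mouse left out. The cause was not tested.

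The replicate block used replicates 1 to 3 of each group. It gave 3 higher (Nr5a2 added, adjusted p = 0.0393) and 6 lower receptors, 1658 higher and 1594 lower genes, Rara -0.059 and Nr2c1 0.0041. In their deviations from group means, same-numbered mice correlated at 0.159, -0.0574 and 0.0555, against -0.128 to 0.0869 in the other pairs. The labels do not say that a number marks a shared batch, litter or day, and so few correlations cannot decide it.

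Of 396 list counts, 24 moved by over 1.5 times. Low counts limit Esrrg, Nr4a1, Rxrg and Nr2c2 and the 6 receptors below the filter. With longest transcripts in place of merged exons, Nr1h3 was at 28.8 and Nr1i3 at 24.96 CPM per kilobase, which put Nr1i3 above Nr0b2 and Nr1i2.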
